A study of Mus musculus with 8 samples.

Results

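The genes described here are those of retinoic acid synthesis and retinol supply: the retinal dehydrogenases Aldh1a1, Aldh1a2 and Aldh1a3 with the near copy Aldh1a7, the retinol dehydrogenases Rdh10 and Rdh11, the alcohol dehydrogenases Adh1 and Adh7, and the retinol handling genes Lrat and Rbp4. All 10 were found by symbol among the 50578 genes of the count table, each in a single row. The question is whether the RNA of the enzymes that would let the cells make retinoic acid themselves was present, and how it moved under treatment. Mouse embryonic fibroblasts (MEFs) were prepared from C57BL/6J embryos after head, tail, limbs and internal organs had been taken away, so they are a mixed primary culture. Wild-type MEFs without a compound, labelled Control (a vehicle was not stated), were compared with MEFs given 1 of 3 small molecules at 10 µM: carbidopa, an inhibitor of aromatic L-amino acid decarboxylase; LY-364947, an inhibitor of the TGF-beta receptor kinase, which the sample labels spell LY-364747; or CHIR-99021, an inhibitor of the kinase GSK3. All groups were grown in medium with fetal bovine serum, and the time under treatment was not given for the RNA-seq samples. Each of the 4 groups has 2 RNA-seq libraries, 8 in all, and no label says that they came from separate cultures, so p-values measure only the spread between these libraries.

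Retinoic acid is made from vitamin A in a pair of oxidation steps. Retinol, carried in blood by the protein that Rbp4 encodes and stored as esters made by the enzyme that Lrat encodes, is first turned reversibly into retinal by short-chain dehydrogenases such as RDH10 or by cytosolic alcohol dehydrogenases, and retinal is then turned irreversibly into retinoic acid by the ALDH1A enzymes. In the embryo, Rdh10 and Aldh1a2 are the main genes of the pathway in mesenchyme, and the cells that receive retinoic acid break it down with CYP26 enzymes and switch on genes such as Rarb.

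Total counts ran from 15039566 to 20504338 per library, and the 2 carbidopa libraries differed more from each other than those of any other group, with a chi-square per degree of freedom over genes of 36.4 against 4.35 to 9.38 in the others. The treated cells are labelled hepatic-like, but none of 8 hepatocyte markers passed the filter on low counts, and their summed level was 1.22 to 1.57 CPM (reads scaled to library size) in treated libraries and 0.223 to 0.516 CPM in MEFs. They are therefore called treated MEFs below. Levels are CPM scaled by the trimmed mean of M values (TMM); changes are log2 differences from edgeR's quasi-likelihood test over the 15154 genes that passed the filter, with the standard error (SE) and the Benjamini-Hochberg adjusted p, and a gene was called when that p was under 0.05.

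Of the 10 genes, 8 passed the filter on low counts, and Lrat and Rbp4 did not. Aldh1a2 and Aldh1a3 passed only because of the 2 MEF libraries, so they had to be lower after treatment; they are left out of the counts against MEFs, and their reads are given as a description. Of the 6 others, 2 rose and 3 fell with carbidopa, where 37.7% of all tested genes were called (18% higher, 19.7% lower). With LY-364947, 2 rose and 3 fell, where 31% were called (13.7% higher, 17.2% lower). With CHIR-99021, 1 rose and 3 fell, where 38.8% were called (18.7% higher, 20.1% lower). With genes that passed only through MEFs or only through treated libraries left out in the same way, 13371 remained, of which 17.9%, 13.1% and 19.2% were higher and 20.6%, 18% and 21.1% lower with carbidopa, LY-364947 and CHIR-99021. The median log2 change of the 6 genes was -0.38 under carbidopa, -0.41 under LY-364947 and -0.36 under CHIR-99021, beside medians over the 13371 genes of 0.02, 0.0026 and 0.03. Leaving out any 1 library of a comparison gave 4 or 5 of the 6 genes called under carbidopa, 4 under LY-364947 and 3 under CHIR-99021, and the genes lost are named below. Adh1 was the only one of the 6 that rose with every molecule, and Aldh1a1 rose under carbidopa and LY-364947. All comparisons against MEFs share the same 2 MEF libraries, so a direction common to the molecules is not an independent repeat. Without composition scaling, on total counts alone, the median of all 15154 genes moved from 0.04, 0.03 and 0.04 to 0.29, 0.25 and 0.26, and the share of higher genes among those called moved from 47.8% to 73.9% under carbidopa, from 44.3% to 70.0% under LY-364947 and from 48.2% to 69.8% under CHIR-99021, so small changes depend on that scaling and are marked where they do.

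**Figure D1:**
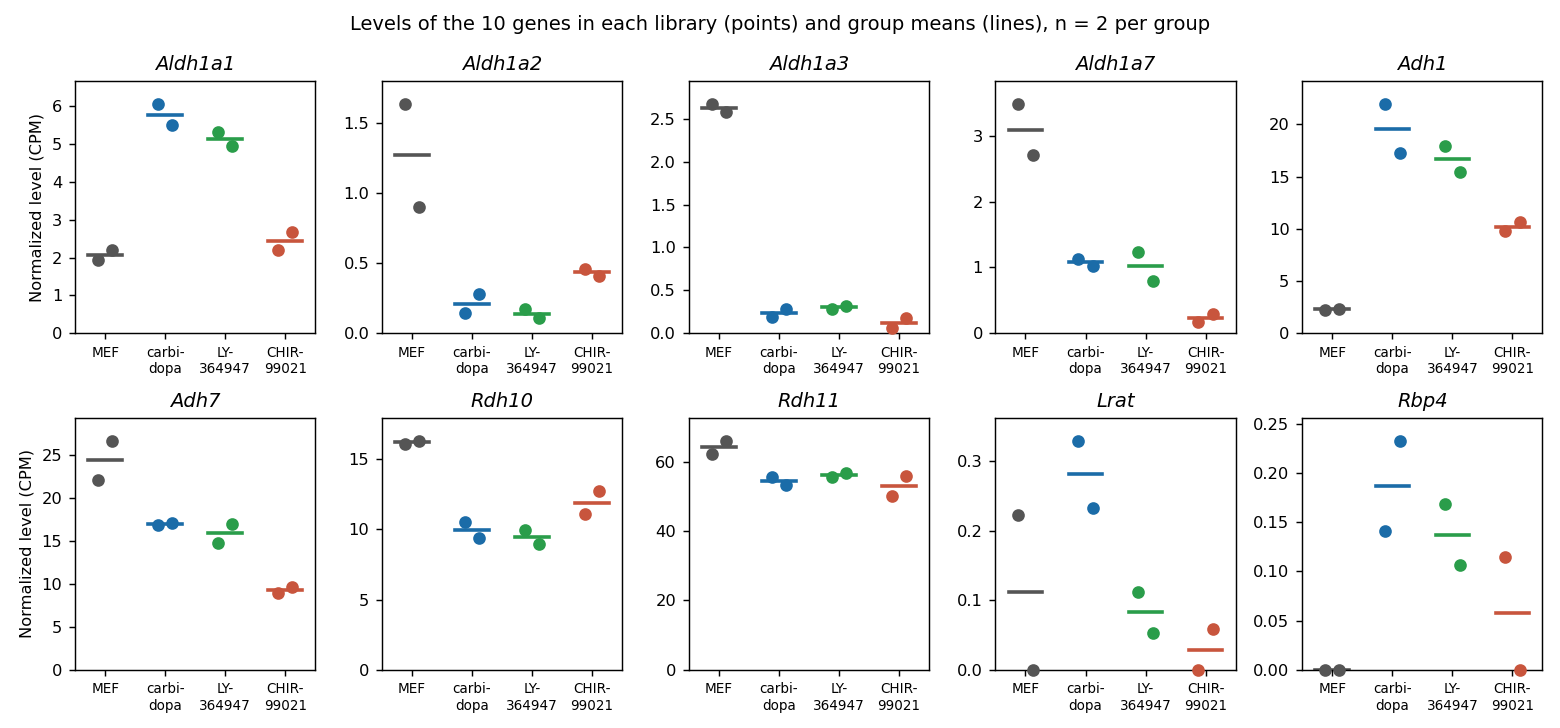
Level of each of the 10 genes in CPM (y axis, linear from 0, a scale of its own in each panel) in the 2 libraries of each group (points) with the group mean (line). Adh1 lies between 9.78 and 22.0 CPM in every treated library and at 2.23 and 2.32 CPM in MEFs, Aldh1a3 goes from 2.67 and 2.58 CPM to at most 0.319 CPM, and Lrat and Rbp4 stay at or under 0.329 CPM throughout.

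The retinol supply genes were close to absent. Rbp4, the gene of the serum retinol carrier, had 0 and 0 reads in MEFs, 3 and 5 under carbidopa, 3 and 2 under LY-364947, and 2 and 0 under CHIR-99021. These levels reached at most 0.233 CPM, and 3 reads, the most that a count of 0 allows, stand for 0.193 to 0.223 CPM in the MEF libraries, so no fold is given. Lrat, whose product esterifies retinol for storage, had 3 and 0 reads in MEFs, 7 and 5 under carbidopa, 2 and 1 under LY-364947, and 0 and 1 under CHIR-99021. Its pooled reads under carbidopa were 2.71 times those of MEFs for equal depth, with an exact 95% interval of 0.732 to 14.98 that covers counting error only, so a difference was not detectable at this depth. Neither gene could be tested, and in each group their level per length of transcript was higher than that of at most 5.32% of tested genes.

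Genes of the first, reversible step were the best represented, which says nothing of the direction in which their products work. Rdh11, which encodes a microsomal retinal reductase that can also work as a retinol dehydrogenase, was the most abundant of the 10 per length, at 18.6 ± 0.782 CPM per kb of exon (SD, n = 2) in MEFs, above 83.2% of tested genes. It had 62.3 and 66.1 CPM in MEFs, 55.7 and 53.3 under carbidopa, 55.5 and 56.6 under LY-364947, and 50.2 and 55.8 under CHIR-99021. Every treated library lay under both MEF libraries on this scale. Treated and MEF libraries did not overlap for 68.9%, 72.7% and 76.2% of all tested genes with carbidopa, LY-364947 and CHIR-99021, so this is nothing particular. None of the changes of Rdh11 passed the test: -0.24 under carbidopa (95% interval -0.46 to -0.01, adjusted p = 0.0896), -0.20 under LY-364947 (-0.42 to 0.03, adjusted p = 0.174) and -0.28 under CHIR-99021 (-0.50 to -0.05, adjusted p = 0.0526). Under total counts without composition scaling the log2 differences under carbidopa and LY-364947 turned to 0.01 and 0.03.

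Rdh10 encodes the retinol dehydrogenase needed for embryonic retinoic acid. Its level was 16.0 and 16.3 CPM in MEFs, 10.5 and 9.37 under carbidopa, 9.98 and 8.94 under LY-364947, and 11.1 and 12.7 under CHIR-99021. It fell in each comparison, with log2 changes of -0.70 under carbidopa (SE 0.15, adjusted p = 0.00424), -0.77 under LY-364947 (SE 0.15, adjusted p = 0.00266) and -0.44 under CHIR-99021 (SE 0.15, adjusted p = 0.0361). Treated and MEF libraries did not overlap, as was so for 68.9%, 72.7% and 76.2% of all tested genes in these comparisons. The fall under CHIR-99021 was lost on total counts (-0.23, adjusted p = 0.226) and without any 1 of the MEF or CHIR-99021 libraries (adjusted p of 0.0601 to 0.224), and kept its call in 4 of 11 alternatives, while the falls with the other molecules kept theirs in all 11. Per length, Rdh10 was at 3.89 ± 0.0447 CPM per kb (SD, n = 2) in MEFs, near the median tested gene at 3.98, and at 2.27 to 2.86 CPM per kb in the treated groups.

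Adh1 and Adh7 are neighbours on chromosome 3 that encode alcohol dehydrogenases able to oxidize retinol, of classes I and IV, and they moved in opposite directions. Adh1 (mm10, chr3:138260991-138290698, + strand) had 30 and 36 reads in MEFs, 467 and 370 under carbidopa, 319 and 290 under LY-364947, and 170 and 183 under CHIR-99021. All treated libraries stood far above both MEF libraries, where 68.9%, 72.7% and 76.2% of all tested genes did not overlap in these comparisons. Adh1 rose by 3.10 on the log2 scale under carbidopa (SE 0.20, 8.59-fold, adjusted p = 1.14e-06), by 2.87 under LY-364947 (SE 0.20, 7.29-fold, adjusted p = 2.12e-06) and by 2.16 under CHIR-99021 (SE 0.21, 4.47-fold, adjusted p = 1.96e-05). Its level per length went from above 25.3% of tested genes in MEFs to above 68.4% under carbidopa, 64.7% under LY-364947 and 51.9% under CHIR-99021.

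Adh7 (mm10, chr3:138217760-138233382, + strand) had 22.1 and 26.7 CPM in MEFs, 16.9 and 17.1 under carbidopa, 14.7 and 17.0 under LY-364947, and 8.97 and 9.68 under CHIR-99021. It fell by 1.39 under CHIR-99021 (SE 0.15, 2.62-fold lower, adjusted p = 4.55e-05), a call kept in every alternative. The smaller falls of -0.52 under carbidopa (SE 0.14, adjusted p = 0.0152) and -0.62 under LY-364947 (SE 0.14, adjusted p = 0.00742) were not called on total counts (-0.27, adjusted p = 0.133, and -0.39, adjusted p = 0.0505). They also rested on single libraries, since the call was lost without MEF replicate 2 (adjusted p = 0.160 under carbidopa and 0.102 under LY-364947) and, for LY-364947, without LY-364947 replicate 1 (adjusted p = 0.0800). In MEFs Adh7 was 6.44 ± 0.863 CPM per kb against 1.02 ± 0.0291 for Adh1 (SD, n = 2). With the molecules the order turned: Adh1 was at 8.78 ± 1.50 and Adh7 at 4.49 ± 0.0409 CPM per kb under carbidopa, 7.46 ± 0.778 and 4.19 ± 0.425 under LY-364947, and 4.57 ± 0.263 and 2.46 ± 0.132 under CHIR-99021.

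The coding sequences of the pair were 69.1% identical and held no common stretch of 75 bases. Each overlaps a gene on the opposite strand, Gm16559 over 136 of the exon bases of Adh1 (6.09%) and 0610031O16Rik over 108 of those of Adh7 (2.85%), and whether counting used strand was not stated. The 250 bases before each RefSeq start (GRCm38.p6, the assembly of mm10; chr3:138277335-138277584 and chr3:138217523-138217772, both on the + strand) are shown because the neighbours moved apart. Capitals mark matches to any of 7 motifs searched on both strands: the nuclear receptor half-site AGGTCA, a direct repeat of it spaced by 5 bases, the TATA box TATAAA, the CCAAT box, the TCF/LEF core CTTTGAT, the SMAD palindrome GTCTAGAC and the C/EBP core TTGCGCAA.
Adh1: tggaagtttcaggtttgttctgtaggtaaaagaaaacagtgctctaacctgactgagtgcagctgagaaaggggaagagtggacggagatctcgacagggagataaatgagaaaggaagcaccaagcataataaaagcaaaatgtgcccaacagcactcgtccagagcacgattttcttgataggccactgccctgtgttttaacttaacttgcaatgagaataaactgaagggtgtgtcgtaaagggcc
Adh7: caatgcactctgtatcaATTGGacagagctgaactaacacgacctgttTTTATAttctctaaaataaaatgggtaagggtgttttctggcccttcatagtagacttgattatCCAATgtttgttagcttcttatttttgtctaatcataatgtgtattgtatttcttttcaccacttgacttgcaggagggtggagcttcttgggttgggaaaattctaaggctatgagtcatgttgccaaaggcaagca

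The Adh1 window held none of the 7 motifs. That of Adh7 held CCAAT from -138 to -134 and, on the opposite strand, from -233 to -229, and TATAAA on the opposite strand from -202 to -197, all counted from the start. Over 27025 promoters of the same length, CCAAT was found in 34.5%, TATAAA in 13.0%, AGGTCA in 13.8%, CTTTGAT in 3.23%, GTCTAGAC in 0.174%, TTGCGCAA in 0.170% and the spaced repeat in 0.0074%. The windows were 58.4% identical over 219 aligned bases. The windows of the 2 RefSeq starts of Aldh1a1 gave 61.3% over 212, so the value shows no likeness particular to Adh1 and Adh7.

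**Figure D2:**
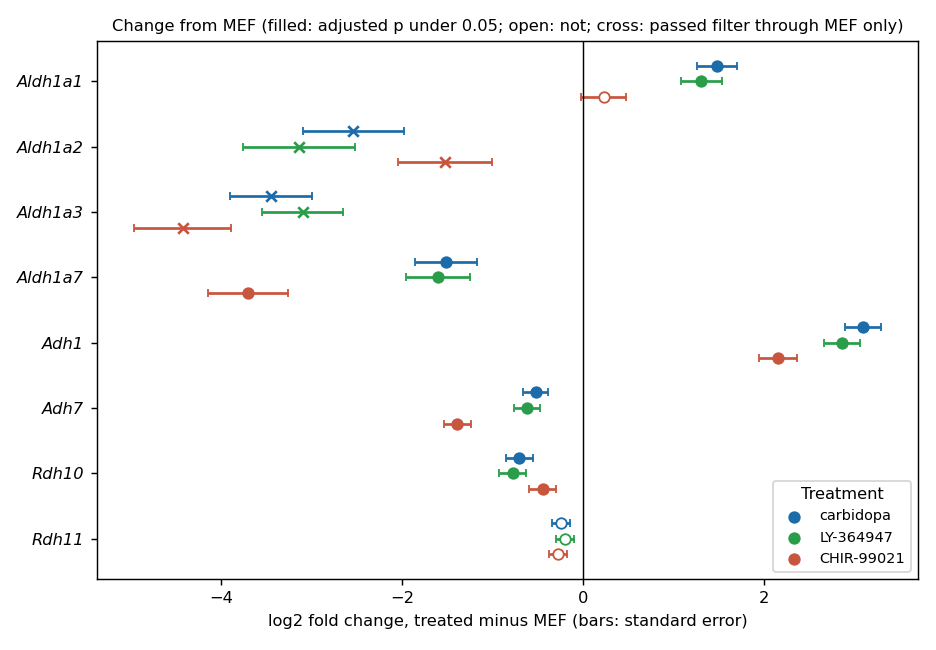
log2 fold change from MEFs (x axis, treated minus MEF, with SE bars) of the 8 tested genes for carbidopa, LY-364947 and CHIR-99021, filled where the adjusted p was under 0.05, with crosses for Aldh1a2 and Aldh1a3, which passed the filter only through MEFs and are shown as a description. Adh1 lies right of 0 at 2.16 to 3.10, Aldh1a7, Rdh10 and Adh7 lie left of 0, and the open points of Rdh11 lie just left of 0 but turn to 0.01 under carbidopa and 0.03 under LY-364947 on total counts.

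Retinal is turned into retinoic acid by the products of Aldh1a1, Aldh1a2 and Aldh1a3, and all of these genes had few reads. In MEFs they stood above 14.3%, 17.9% and 18.0% of tested genes per length, at 0.418 ± 0.0373 CPM per kb for Aldh1a1, 0.560 ± 0.229 for Aldh1a2 and 0.569 ± 0.0147 for Aldh1a3 (SD, n = 2). The order of these 3 levels in MEFs is not settled, since the Aldh1a2 libraries at 0.722 and 0.399 CPM per kb span the others.

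Aldh1a1 (mm10, chr19:20492715-20643465, + strand) encodes the cytosolic enzyme known from adult liver and many epithelia. It had 26 and 34 reads in MEFs, 129 and 118 under carbidopa, 95 and 93 under LY-364947, and 38 and 46 under CHIR-99021. It rose by 1.48 on the log2 scale under carbidopa (SE 0.22, 2.79-fold, adjusted p = 0.000522) and by 1.31 under LY-364947 (SE 0.23, 2.48-fold, adjusted p = 0.00137), and these calls were kept in all 11 alternatives. With CHIR-99021 the libraries, at 2.19 and 2.67 CPM, overlapped those of MEFs at 1.93 and 2.19 CPM, and the difference of 0.23 (95% interval -0.31 to 0.77, adjusted p = 0.492) did not pass.

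Aldh1a2, the main retinal dehydrogenase gene of embryonic mesoderm, had 22 and 14 reads in MEFs, 3 and 6 under carbidopa, 3 and 2 under LY-364947, and 8 and 7 under CHIR-99021. All treated libraries were under both MEF libraries, where 68.9%, 72.7% and 76.2% of all tested genes did not overlap in these comparisons. For equal depth, pooled MEF reads were 5.90 times those under carbidopa (exact 95% interval 2.79 to 13.9, counting error only), 9.10 times those under LY-364947 (3.56 to 29.7) and 2.87 times those under CHIR-99021 (1.53 to 5.64). These ratios are a description, since the gene was in the fit only because of its MEF reads.

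Aldh1a3, a retinal dehydrogenase gene of developing eye and nasal tissue, had 36 and 40 reads in MEFs, 4 and 6 under carbidopa, 5 and 6 under LY-364947, and 1 and 3 under CHIR-99021. No treated library had more than 6 reads. Pooled MEF reads were 11.2 times those under carbidopa for equal depth (exact 95% interval 5.77 to 24.3), 8.74 times those under LY-364947 (4.62 to 18.2) and 22.7 times those under CHIR-99021 (8.52 to 85.5), again as a description.

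Aldh1a7 (mm10, chr19:20692953-20727562, - strand) is a rodent near copy of Aldh1a1 on the same chromosome whose product is not known for retinal oxidation. It had 47 and 42 reads in MEFs, 24 and 22 under carbidopa, 22 and 15 under LY-364947, and 3 and 5 under CHIR-99021. Each treated group lay under the MEF libraries, and the CHIR-99021 libraries under all others. Against MEFs, 68.9%, 72.7% and 76.2% of all tested genes did not overlap with carbidopa, LY-364947 and CHIR-99021. Aldh1a7 fell, with log2 changes of -1.51 under carbidopa (SE 0.34, adjusted p = 0.00639), -1.60 under LY-364947 (SE 0.35, adjusted p = 0.00575) and -3.70 under CHIR-99021 (SE 0.45, adjusted p = 0.000108), where pooled MEF reads were 13.3 times as many for equal depth (exact 95% interval 6.46 to 31.8). The fall under carbidopa was not called without MEF replicate 1 (adjusted p = 0.0668), nor that under LY-364947 without MEF replicate 1 or LY-364947 replicate 2 (adjusted p = 0.0628 and 0.0666).

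Since Aldh1a1 and Aldh1a7 moved in opposite directions under carbidopa and LY-364947, how far reads could tell them apart matters. Their coding sequences, of 1503 bases each, were 91.6% identical with 126 differences, and the longest identical run was 100 bases, from coding base 757 to 856. Of all 75-base words, 1.01% of those of Aldh1a1 and 2.51% of those of Aldh1a7 occurred in the other gene. The sequenced reads were longer than the run of 100 bases, so a full-length read from a shared coding stretch would reach a differing base. Reads cut shorter than such a stretch remain uncertain, and how reads of this pair were assigned was not tested. The first 90 coding bases hold 5 differences, set in capitals, to show how the copies differ.
Aldh1a1: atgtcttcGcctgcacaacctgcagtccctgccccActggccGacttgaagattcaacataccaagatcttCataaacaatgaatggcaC
Aldh1a7: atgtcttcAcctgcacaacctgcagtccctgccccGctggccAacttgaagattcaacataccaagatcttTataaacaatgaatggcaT

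The likeness runs into the sequence before the starts. The 250 bases before the second of the 2 RefSeq starts of Aldh1a1 (GRCm38.p6, chr19:20601718-20601967, + strand) and before that of Aldh1a7 (chr19:20727557-20727806, - strand) were 73.6% identical over 235 aligned bases, while the first Aldh1a1 start reached 62.2% over 225. The 2 Aldh1a1 windows matched each other at 61.3% over 212, so the 62.2% of the first start shows no particular likeness. Capitals mark matches to the same 7 motifs.
Aldh1a1: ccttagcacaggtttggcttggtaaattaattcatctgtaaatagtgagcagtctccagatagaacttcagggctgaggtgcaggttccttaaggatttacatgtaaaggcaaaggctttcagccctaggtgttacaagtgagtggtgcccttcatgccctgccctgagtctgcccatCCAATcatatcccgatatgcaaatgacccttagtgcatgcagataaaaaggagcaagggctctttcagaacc
Aldh1a7: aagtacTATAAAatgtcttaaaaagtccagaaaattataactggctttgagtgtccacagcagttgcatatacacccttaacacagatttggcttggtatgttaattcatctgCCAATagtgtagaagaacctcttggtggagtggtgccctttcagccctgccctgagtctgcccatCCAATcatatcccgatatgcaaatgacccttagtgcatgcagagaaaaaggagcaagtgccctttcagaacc

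Both windows held CCAAT from -72 to -68, and that of Aldh1a7 held a further CCAAT from -137 to -133 and TATAAA from -244 to -239. Neither held AGGTCA or the spaced repeat. RefSeq windows were found for 8 of the 10 genes.

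The sum of the 3 retinal dehydrogenase genes and its make-up are given as a description, since Aldh1a2 and Aldh1a3 were in the fit only through MEFs. Summed per length, Aldh1a1, Aldh1a2 and Aldh1a3 gave 1.69 and 1.40 CPM per kb in MEFs, 1.33 and 1.30 under carbidopa, 1.21 and 1.12 under LY-364947, and 0.659 and 0.757 under CHIR-99021. The group means were 1.55 ± 0.206, 1.32 ± 0.0241, 1.17 ± 0.0676 and 0.708 ± 0.0698 CPM per kb (SD, n = 2), with the MEF libraries above all others. That order rests on the length used: on the longest transcript of each gene the sums were 2.20 ± 0.170 for MEFs, 2.61 ± 0.108 for carbidopa, 2.33 ± 0.125 for LY-364947 and 1.25 ± 0.151 for CHIR-99021, so that only CHIR-99021 stood under MEFs on both lengths.

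Aldh1a1 made up 27.4% ± 6.06 of the sum in MEFs, 89.0% ± 4.56 under carbidopa, 89.2% ± 0.521 under LY-364947 and 69.3% ± 2.91 under CHIR-99021 (SD, n = 2). In reads, Aldh1a1 took 31.0% of 84 reads (95% Wilson interval 22.1 to 41.5, counting error only) and 38.6% of 88 (29.1 to 49.1) in the MEF libraries. It took 94.9% of 136 reads (89.8 to 97.5) and 90.8% of 130 (84.6 to 94.6) under carbidopa. With LY-364947 it took 92.2% of 103 (85.4 to 96.0) and 92.1% of 101 (85.1 to 95.9), and under CHIR-99021 80.9% of 47 (67.5 to 89.6) and 82.1% of 56 (70.2 to 90.0). These shares are a description only. Aldh1a2 and Aldh1a3 passed the filter only through MEFs, so a higher Aldh1a1 share after treatment was favoured in advance. Under CHIR-99021 the log2 difference of Aldh1a1 itself was 0.23 and did not pass the edgeR test (adjusted p = 0.492). With 2 libraries a group an exact permutation test of a single such share cannot reach 0.05, and none was run.

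**Figure D3:**
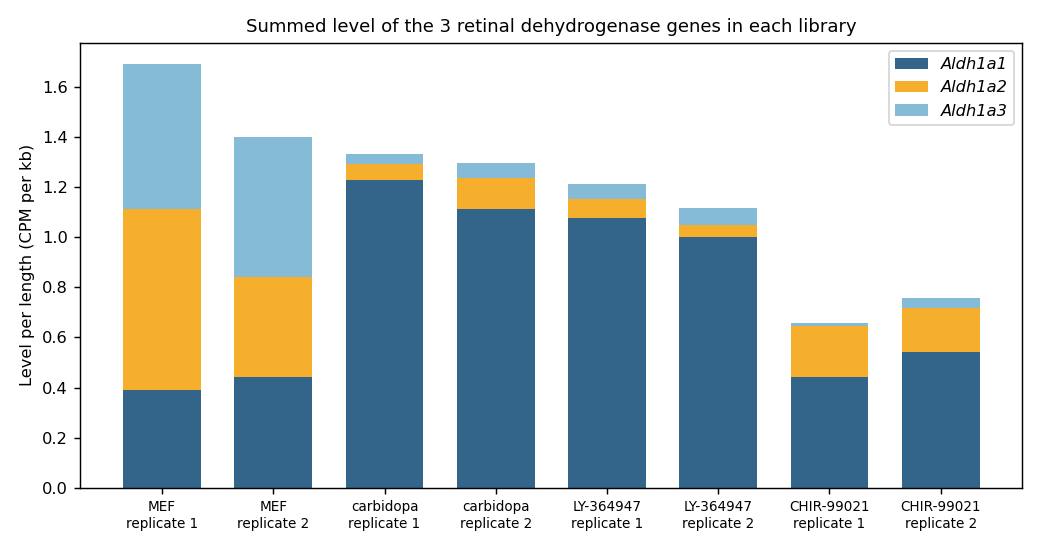
Level per length (y axis, CPM per kb of exon, from 0) of Aldh1a1, Aldh1a2 and Aldh1a3 stacked for each of the 8 libraries (x axis). The MEF bars, at 1.69 and 1.40, are split over the 3 genes, while Aldh1a1 fills 85.8% to 92.3% of the carbidopa and LY-364947 bars and 67.2% and 71.3% of the lower CHIR-99021 bars.

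Per length, Rdh11 was the highest of the 10 genes in each group, at 15.3 to 18.6 CPM per kb. Lrat and Rbp4 were at most 0.139, but the low end of the order changed. Under carbidopa Rbp4 (0.139) stood above Aldh1a2 (0.0929) and Aldh1a3 (0.0507). Under LY-364947 Rbp4 (0.102) stood above Aldh1a2 (0.0606) and Aldh1a3 (0.0649), and under CHIR-99021 Rbp4 (0.0428) above Aldh1a3 (0.0251). These are means of few reads, so the order among them is not settled. In MEFs the order after Rdh11 was Adh7, Rdh10, Aldh1a7 at 1.50 ± 0.268 CPM per kb (SD, n = 2) and Adh1, with the libraries of each gene apart from those of the next on exon length. On the longest transcript Adh1, at 1.49 and 1.56 CPM per kb, lay between the Aldh1a7 libraries at 1.69 and 1.31, so the order of these neighbours is not settled. With carbidopa and LY-364947 it became Adh1, Adh7, Rdh10 and Aldh1a1, again without overlap between neighbours. With CHIR-99021 it was Adh1, Rdh10 and Adh7, the last 2 at 2.67 and 3.05 against 2.37 and 2.56 CPM per kb. The median tested gene lay at 3.98 to 4.15 CPM per kb, so the retinal dehydrogenase genes stayed under it in every group, Aldh1a1 reaching 1.17 ± 0.0813 under carbidopa, or 2.57 and 2.33 CPM per kb in the carbidopa libraries on its longest transcript.

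**Figure D4:**
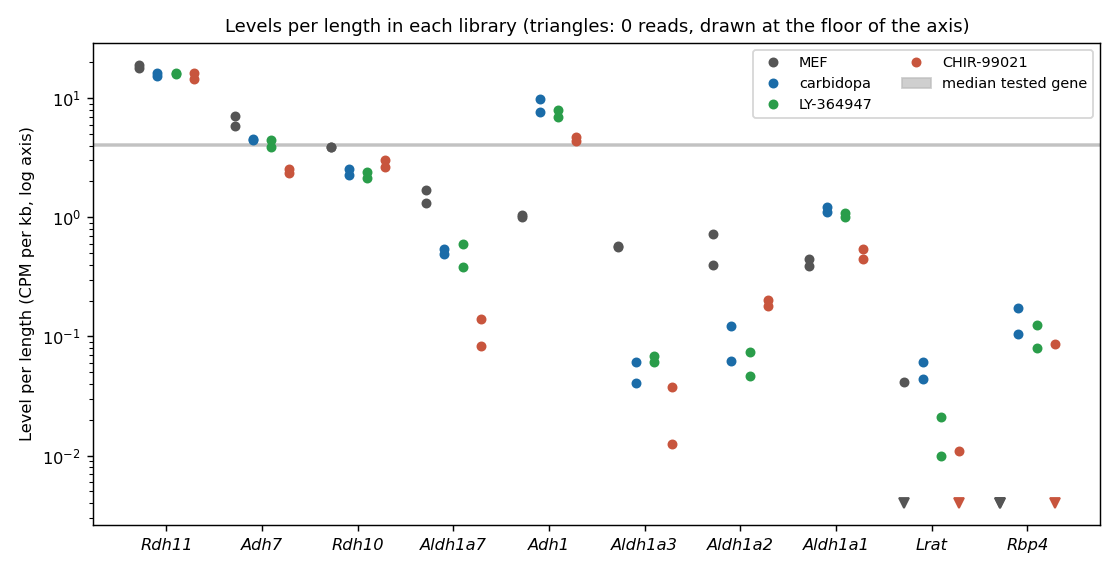
Level per length of the 10 genes (y axis, CPM per kb of exon, log axis) in each library, by group, with the median tested gene as a grey band at 3.98 to 4.15 and libraries with 0 reads as triangles at the foot. Rdh11 lies above the band in all libraries, Adh1 crosses it on treatment from 1.02 to 4.57 or more, and Aldh1a1, Aldh1a2 and Aldh1a3 lie under it throughout.

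The molecules were compared with each other to see where their effect on these genes differed. CHIR-99021 stood apart from both others. Against carbidopa, 4 of the 8 tested genes were lower under CHIR-99021 and none was higher, where 14.7% of all genes were called (6.62% higher, 8.08% lower): Aldh1a1 with a log2 difference of -1.25 (adjusted p = 0.00371), Aldh1a7 of -2.19 (adjusted p = 0.0147), Adh1 of -0.94 (adjusted p = 0.00386) and Adh7 of -0.87 (adjusted p = 0.00380). Against LY-364947, the corresponding 4 were lower, where 14.1% were called (6.45% higher, 7.69% lower): Aldh1a1 with -1.08 (adjusted p = 0.00890), Aldh1a7 with -2.10 (adjusted p = 0.0203), Adh1 with -0.71 (adjusted p = 0.0174) and Adh7 with -0.77 (adjusted p = 0.00764). Libraries of these 4 genes did not overlap, as was so for 52.2% of all genes against carbidopa and 64.5% against LY-364947. These comparisons share the CHIR-99021 libraries, and without CHIR-99021 replicate 1 none of the 8 genes was called in either. Against LY-364947 the count also fell to 1 without LY-364947 replicate 1 and to 2 without CHIR-99021 replicate 2. Rdh10, Rdh11, Aldh1a2 and Aldh1a3 passed in neither comparison. Aldh1a2 was 1.02 higher under CHIR-99021 than under carbidopa (95% interval -0.40 to 2.43) and 1.62 higher than under LY-364947 (0.03 to 3.20, adjusted p = 0.165).

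Between LY-364947 and carbidopa, 0 of the 8 genes were called by edgeR or by DESeq2 and 0 had an unadjusted p under 0.05, where 0.0132% of all genes were called. That share, 2 genes, is not stable: no filter on low counts gave 329 and DESeq2 15, and it also moved as libraries were left out. The log2 difference, LY-364947 minus carbidopa, was -0.17 for Aldh1a1 (95% interval -0.61 to 0.26), -0.24 for Adh1 (-0.58 to 0.11), -0.10 for Adh7 (-0.41 to 0.22), -0.07 for Rdh10 (-0.41 to 0.26) and 0.04 for Rdh11 (-0.18 to 0.26). For the low genes the intervals were wide, -2.33 to 1.14 for Aldh1a2, -0.97 to 1.67 for Aldh1a3 and -0.92 to 0.75 for Aldh1a7, so these data do not show that the molecules act alike on them.

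The profiles over the 8 libraries most like those of the 3 most abundant tested genes were found by the smallest root mean square difference of centred log2 CPM. For Rdh11 they were those of Rfk (0.034), Impact (0.045) and Gabpa (0.047), against a median of 0.319 over 15146 genes. For Adh7 they were Myom2 (0.060), Susd2 (0.083) and Hmgcs1 (0.117), against 0.592, and for Adh1 Dut (0.117), Pth1r (0.133) and Tmem176b (0.135), against 1.21. The points share their libraries, and the values are a description.

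Around these genes, a list of 50 retinoid genes was considered, of which 49 were found and 32 passed the filter. The list of 50 includes Lrat, which is also one of the 10 genes and did not pass. Stra6l passed only through MEFs, and Cyp26a1, Rarres2 and Rdh12 would not have passed without treated libraries, so these are left out of the counts. Of the 28 others, 12 rose and 8 fell under carbidopa, 9 rose and 6 fell under LY-364947, and 12 rose and 8 fell under CHIR-99021, where over the 13371 genes 17.9%, 13.1% and 19.2% were higher and 20.6%, 18% and 21.1% lower. Their median log2 changes were 0.15, 0.08 and 0.14. The list includes retinoic acid response genes chosen with results of these libraries known, so it is not independent evidence of a direction. Among retinol and retinal oxidoreductases 10 of 16 were tested. Of the 9 that did not rest on treated libraries, 3 rose and 2 fell under carbidopa, 2 rose and 1 fell under LY-364947, and 2 rose and 2 fell under CHIR-99021, or 55.6%, 33.3% and 44.4% called, where 38.5%, 31.1% and 40.3% of the 13371 genes were. Dhrs3, whose product reduces retinal back to retinol and so works against the first step, went from 29.2 and 28.8 CPM in MEFs to between 366 and 492 CPM in the treated libraries. It rose by 3.97 on the log2 scale under carbidopa, 3.79 under LY-364947 and 3.70 under CHIR-99021 (adjusted p of 6.81e-09, 9.46e-09 and 1.68e-08). Adh5, a ubiquitous alcohol dehydrogenase gene, rose by 0.81, 0.66 and 0.68, with the last 2 calls lost without MEF replicate 2 (adjusted p = 0.0762 and 0.0560). Dhrs9, which encodes a dehydrogenase active on retinol, fell, with log2 changes of -2.72, -2.14 and -2.12.

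Genes of retinol uptake, binding and ester turnover were split. Of 11 considered, 10 were found, all but Stra6, and 5 were tested. Of the 4 other than Stra6l, 2 rose and 2 fell under carbidopa and under LY-364947, while 2 rose and 1 fell under CHIR-99021. That is 100%, 100% and 75% called, where 38.5%, 31.1% and 40.3% of the 13371 genes were. Dgat1, an acyltransferase gene whose product can esterify retinol, rose by 1.18, 1.31 and 1.22, and Lipe, the hormone-sensitive lipase gene, by 1.01, 0.86 and 0.88. Lpl, the lipoprotein lipase gene, fell, with log2 changes of -2.25, -2.39 and -3.22. Stra6l, whose product is a retinol transporter, had 32 and 22 reads in MEFs and 2 to 8 in treated libraries. Of 3 genes of retinoic acid binding proteins, Crabp1 fell with each molecule, with log2 changes of -1.04, -1.56 and -1.48. Crabp2, whose product carries retinoic acid to its receptors, rose under CHIR-99021 by 1.77 (adjusted p = 2.84e-05), and its log2 differences of 0.03 under carbidopa (adjusted p = 0.916) and 0.02 under LY-364947 (adjusted p = 0.961) did not pass. Fabp5, which encodes a fatty acid binding protein that can also bind retinoic acid, fell under CHIR-99021 with a log2 change of -0.87 (adjusted p = 0.000184) and had 0.14 under LY-364947 (adjusted p = 0.362). Its rise of 0.33 under carbidopa (adjusted p = 0.0374) was lost in 6 of 11 alternatives, among them without MEF replicate 1 (adjusted p = 0.176), MEF replicate 2 (0.168) or carbidopa replicate 1 (0.0870).

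Of 8 retinoic acid response genes that did not rest on treated libraries, 6 rose and 1 fell under carbidopa. Under LY-364947 6 rose and 0 fell, and under CHIR-99021 7 rose and 1 fell. Of the 13371 genes, 38.5%, 31.1% and 40.3% were called. Rarres1 fell under carbidopa and CHIR-99021 (-1.81 and -2.36, adjusted p = 0.00589 and 0.00207), and its -0.87 under LY-364947 was not called. Cyp2s1, of the breakdown list, had -1.39, -1.38 and -1.90, none called. Cyp26b1 and Rarb rose with each molecule. Cyp26b1, whose product breaks retinoic acid down, had 157 and 170 reads in MEFs, 12062 and 12790 under carbidopa, 10665 and 10062 under LY-364947, and 4001 and 4197 under CHIR-99021, and rose by 5.68, 5.65 and 4.39 on the log2 scale (adjusted p of 1.85e-09, 1.95e-09 and 5.62e-09). Cyp26a1, which passed the filter only through treated libraries and so had to be higher in them, had 0 and 0 reads in MEFs and 11 to 24 in treated libraries, at least 4.39-fold higher under carbidopa, 3.40-fold under LY-364947 and 6.52-fold under CHIR-99021 against a floor of 3 reads per MEF library. Rarb, the receptor gene that retinoic acid is known to switch on, had 12 and 14 reads in MEFs and between 5694 and 9037 in treated libraries. In the same libraries the summed level of Aldh1a1, Aldh1a2 and Aldh1a3 was 1.12 to 1.33 CPM per kb of exon under carbidopa and LY-364947 and 0.659 to 0.757 under CHIR-99021. On the longest transcript the means were 2.61 under carbidopa, 2.33 under LY-364947 and 1.25 under CHIR-99021, against 2.20 in MEFs. Any link between these sums and the rises was not tested.

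**Figure D5:**
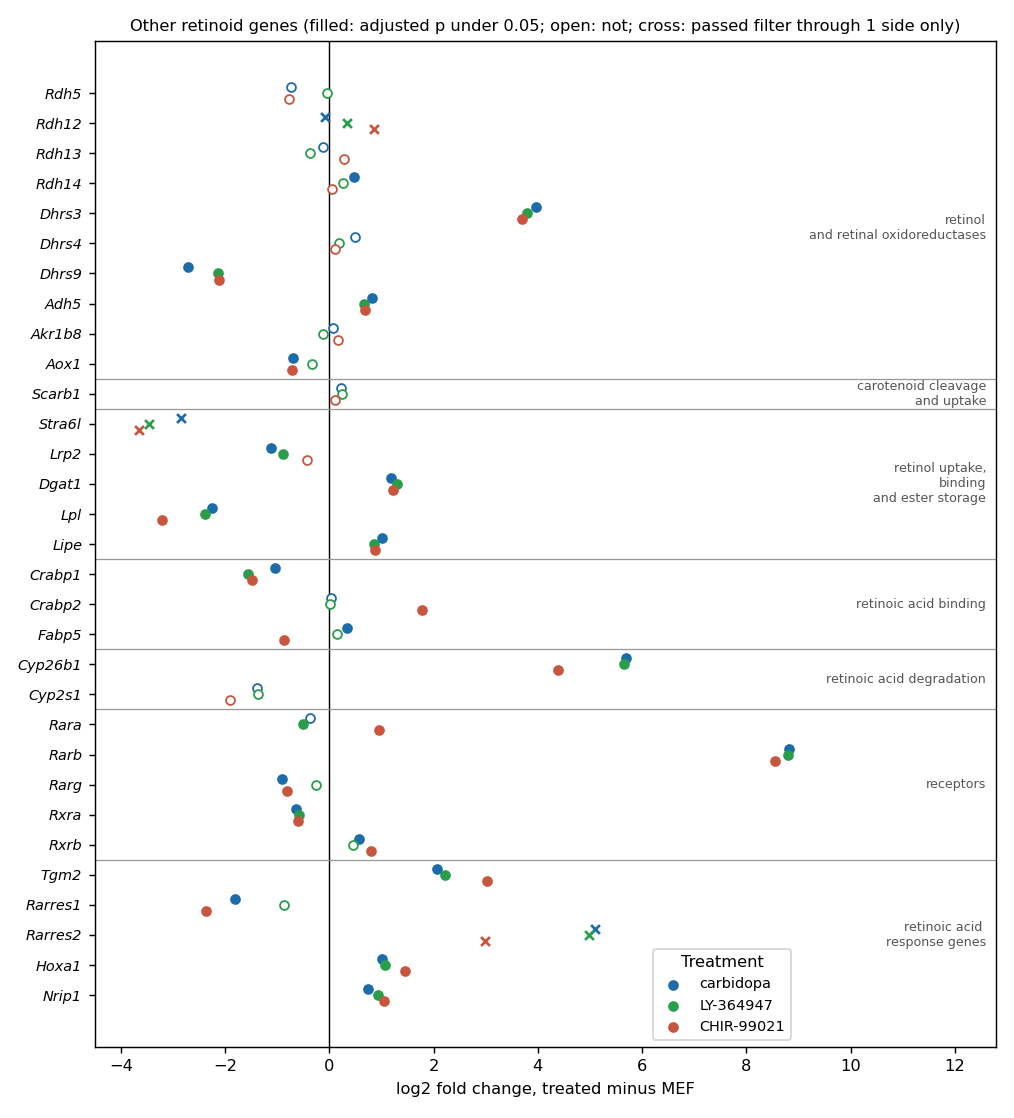
log2 fold change from MEFs (x axis, treated minus MEF) of the tested other retinoid genes, by role, for each molecule, filled where the adjusted p was under 0.05, with crosses for Stra6l, Rarres2 and Rdh12, which passed the filter only through MEFs or would not have passed without treated libraries; Cyp26a1, at 0 reads in MEFs, is left out because its fitted change has no fixed size. Rarb lies farthest to the right at 8.55 to 8.82, Cyp26b1 lies at 4.39 to 5.68 and Dhrs3 at 3.70 to 3.97, and Lpl and Dhrs9 lie to the left with every molecule.

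Markers of other cells in the culture moved with these results, in bulk RNA, where fewer cells of a type and less RNA per cell cannot be told apart. Mesothelial cells are a known site of Aldh1a2, and the summed level of 8 mesothelial markers was 67.4 to 71.5 CPM in MEFs, 26.2 to 33.1 under carbidopa, 23.7 to 26.1 under LY-364947 and 28.5 to 31.8 under CHIR-99021. Of 7 tested, 2 rose and 5 fell under carbidopa and under LY-364947, and 1 rose and 4 fell under CHIR-99021. For these and the marker counts below, 17.9%, 13.1% and 19.2% of the 13371 genes were higher with the 3 molecules. The shares that were lower were 20.6%, 18% and 21.1%. Bnc1, Krt19 and Upk1b had the most reads; Upk1b went from 281 and 299 reads in MEFs to between 46 and 74 in treated libraries, while Krt19 went from 43 and 36 to between 105 and 408. Macrophage markers, led by Lyz2, summed to 1048 to 1085 CPM in MEFs and 309 to 328, 233 to 237 and 76.9 to 85.5 CPM with the 3 molecules, and 9, 9 and 10 of 10 fell. Fibroblast markers, led by Fn1, summed to 34745 to 35081 CPM in MEFs and to between 8123 and 11703 CPM in treated libraries, with 8 of 10 lower and 1 higher in each comparison. Endothelial markers summed to 23.2 to 25.3 CPM in MEFs and 11.6 to 16.1 CPM in treated libraries, and Pecam1 and Cdh5, which define those cells, had at most 7 reads. Kdr had the most reads of that list, with 156 and 141 in MEFs and 150 to 246 in treated libraries. Markers of hepatic stellate cells, a liver cell that stores retinol through Lrat, summed to 43.9 to 44.4 CPM in MEFs and 16.0 to 26.5 CPM in treated libraries. Of 4 tested, 1 was lower in each comparison and 1 higher under LY-364947. That is 25%, 50% and 25% called, where 38.5%, 31.1% and 40.3% of the 13371 genes were, so these counts show nothing particular to the list. Des had the most reads, with 421 and 473 reads in MEFs and 113 to 238 in treated libraries. Next came Hand2, with 115 and 146 reads in MEFs and 98 to 207 in treated libraries, and Ngfr, with 38 and 37 and then 24 to 67. Reln had 14 and 20 reads in MEFs and 18 to 47 in treated libraries. Adipocyte markers summed to 5.67 to 6.02 CPM in MEFs, 1.26 to 1.51 under carbidopa, 1.01 to 1.33 under LY-364947 and 7.02 to 7.31 under CHIR-99021, nearly all of it Fabp4. Epithelial and keratinocyte markers summed to 0.903 to 1.11 CPM in MEFs, 3.86 to 6.90 under carbidopa, 1.38 to 1.40 under LY-364947 and 5.04 to 5.18 under CHIR-99021. The part of these cells in the changes of Aldh1a1, Aldh1a2, Aldh1a3, Aldh1a7, Adh1, Adh7 and Rdh10 was not tested.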

How the data were processed

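RNA of 4 groups of MEF cultures was sequenced in 8 libraries as 150-base pairs. The authors aligned reads to mm10 with STAR 2.4.2a, a version given in the submitters' processing notes, and deposited raw counts per gene from featureCounts; strand setting and annotation release are not given in the sources used here. Symbols matched GENCODE M21 (GRCm38) for 50354 of 50578 genes (99.6%), which gave positions and exon lengths. The 10 genes, the lists of other retinoid genes and of markers, and the naming rule (every member in all libraries, other retinoid genes that passed the filter, up to 3 leading markers a list, 3 most alike profiles) were chosen with earlier results of these data known. The markers Reln, Pecam1 and Cdh5 were named outside that rule. Counts were filtered with filterByExpr (15154 genes), scaled by TMM and fitted with edgeR 4.0.16 (limma 3.58.1, R 4.3.3) in 1 model of the 8 libraries, without a replicate term, for 6 comparisons, p-values being adjusted over all 15154 genes; the biological coefficient of variation was 11.0%. The fit was tested on simulated data. Alternatives were DESeq2 1.42.0, RLE size factors, no filter, at least 10 reads in every library, the compared groups alone, a replicate block, each library left out and, added after seeing the data, total counts. Intervals and floors cover counting error only, since reads carry no molecular identifiers. A gene of the retinoid lists is not reported here.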

Additional observations from a re-analysis of the deposited data

How the results depend on the processing

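Of 444 values of the 8 tested genes under alternatives, those of Aldh1a2 and Aldh1a3 against MEFs left out, 403 kept their direction and their side of the threshold, 30 lost the call, 4 gained it and 7 turned direction. Direction turned for Rdh11 on total counts, to 0.014 with carbidopa and 0.031 with LY-364947 against MEFs. The other turns were of uncalled differences between treatments with a library left out, which ranged from -0.42 to 0.19 for Aldh1a7, -0.16 to 0.012 for Rdh10 (0.0022 without LY-364947 replicate 2) and -0.21 to 0.0095 for Adh7 (LY-364947 minus carbidopa), and from -0.11 to 0.037 for Rdh11 (CHIR-99021 minus carbidopa). With at least 10 reads in every library, 4 of the 10 genes were called with carbidopa and 4 with LY-364947, Aldh1a2, Aldh1a3 and Aldh1a7 no longer being tested. The same replicate number did not mark paired libraries (correlation of deviations -0.16 to 0.13); with a replicate block 7, 7 and 5 of the genes were called against MEFs for carbidopa, LY-364947 and CHIR-99021, against 7, 7 and 6 without it; without Aldh1a2 and Aldh1a3, which passed the filter only through MEFs, it was 5, 5 and 4 of 6 both ways. Rdh11 gained a call with CHIR-99021 under RLE (adjusted p = 0.0331), at 10 reads in every library (0.0397) and in the compared groups alone (0.0161), and with LY-364947 in the compared groups alone (0.0464). Leaving out each library gave 0 to 4 of the 8 genes for CHIR-99021 against carbidopa and 0 to 3 against LY-364947, the 0 being without CHIR-99021 replicate 1. Over all genes it gave 3142 to 7996 calls for carbidopa (5717 with all libraries), 2841 to 3095 for LY-364947 (4694), 3433 to 4709 for CHIR-99021 (5878), 715 to 4632 for CHIR-99021 against carbidopa (2227), 663 to 1200 for CHIR-99021 against LY-364947 (2143) and 2 to 3816 for LY-364947 against carbidopa (2), the 7996, 4632 and 3816 without carbidopa replicate 2. The compared groups alone gave 1027 for CHIR-99021 against carbidopa, 3673 for CHIR-99021 against LY-364947 and 0 for LY-364947 against carbidopa, where no filter gave 329 and DESeq2 15; the cause was not tested. Of 363 values of 11 named other retinoid genes, 347 kept direction and call. Small uncalled differences of Crabp2 turned direction, to -0.0038 with carbidopa and with LY-364947 under RLE and to -0.0050 with LY-364947 in DESeq2, and ranged from -0.20 to 0.23 with carbidopa and from -0.11 to 0.14 with LY-364947 as libraries were left out. With 2 libraries a group and 0 to 47 reads in a library for Aldh1a2, Aldh1a3, Aldh1a7, Lrat and Rbp4, depth limits what can be said of them.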
